A study of Homo sapiens with 4 samples.

Results

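The 9 human long noncoding RNAs known for work in the nucleus or for binding nuclear proteins that were followed after depletion of SAF-A are MALAT1, NEAT1, KCNQ1OT1, FIRRE, MEG3, PVT1, TUG1, NORAD and MIAT. They were chosen by symbol, with earlier results of these data known. They are 9 of the 24995 symbols or unmatched identifiers in the files, held in 26 of 47363 transcript rows. The gene HNRNPU encodes SAF-A, scaffold attachment factor A, which is plentiful in nuclei and holds RNA to chromatin. The cells were RPE1, an established line of human retinal pigment epithelium that telomerase keeps dividing. They received 10 nM of a commercial negative control siRNA or of 1 siRNA against SAF-A, all with the same lipid reagent, and RNA was taken at 24 h or 48 h. This gives the groups control 24 h and SAF-A 24 h, and likewise 2 groups at 48 h, each with 1 library and none of untransfected cells. No difference below therefore has a replicate check and no p-value is given. Intervals on estimated reads cover counting error only and take each read as independent. The reads carry no molecular identifiers, so copies of the same molecule cannot be told from separate molecules. Neither these nor the deposited intervals say anything of the spread between cultures, since each group has 1 library.

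Long noncoding RNAs act without being translated, and many of those studied here stay close to chromatin or inside nuclear bodies. MALAT1 sits in nuclear speckles, the stores of splicing factors. NEAT1 is the scaffold around which paraspeckles form. KCNQ1OT1 and MEG3 are imprinted transcripts that act on or mark gene clusters, FIRRE binds SAF-A through a local repeat, PVT1 lies beside MYC, and NORAD titrates Pumilio proteins, which repress mRNAs. The deposited libraries were made from ribosome-depleted total RNA, so RNAs with and without a poly(A) tail could be read.

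The sequences below were read from the GRCh37 genome along the deposited transcript models, and for the long NEAT1 form at the end of its locus. They show features for which NORAD, the MALAT1 and NEAT1 pair, and FIRRE are known. Of these features, only the NORAD element count was set beside other tested transcripts. Capitals in the NORAD windows mark the Pumilio element TGTANATA, searched on the transcript strand only with overlaps allowed. NORAD (RefSeq NR_027451) held 15 of these elements in 5343 bases, between positions 761 and 4606. The spelling TGTATATA occurred 10 times, TGTAAATA 4 times, TGTACATA 1 time and TGTAGATA 0 times. Only 1 of 11014 transcripts of tested genes read from the genome had more (the highest count was 16), and 29.8% had at least 1. The windows lie on the minus strand at chr20:34638106-34638131, chr20:34637626-34637651 and chr20:34637416-34637441. Capitals mark only the numbered element, and the window of element 5 begins with element 4, TGTATATA, in lower case.
NORAD element 1: gaaggcctgTGTATATAatatgaaaa
NORAD element 3: atcacatttTGTAAATAcctttttgt
NORAD element 5: tgtatatagTGTACATAaaggacaga

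MALAT1 and the long form of NEAT1 are known to end without a poly(A) tail, in a triple helix that protects the RNA after RNase P has cut it. Capitals mark the longest stretch that the last 500 bases of the MALAT1 model and of the long NEAT1 locus share (16 bases, U-rich in the RNA) and the shared A-rich tract (11 bases) that follows it. The MALAT1 windows are chr11:65273529-65273558 and chr11:65273568-65273597, and the NEAT1 windows are chr11:65212948-65212977 and chr11:65212982-65213011, all on the plus strand.
MALAT1 U-rich stretch: ttgttttCTCAGGTTTTGCTTTTtggcctt
NEAT1 U-rich stretch: ggccgcaCTCAGGTTTTGCTTTTcaccttc
MALAT1 A-rich tract: taaaaaaaaAAAAAGCAAAAgatgctggtg
NEAT1 A-rich tract: ctgtgaaagagtgagcaggAAAAAGCAAAA

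FIRRE is known for a repeated domain within its spliced transcript, and capitals mark a 16-base stretch that its 2928-base model (NR_026975) held 3 times. In all, 4.12% of the positions in FIRRE began a 16-base word that occurred again in the same transcript, against 0 in the MALAT1, NEAT1, PVT1 and TUG1 models and 1.95% in NORAD. The share was 0.888% in KCNQ1OT1, 0.315% in MIAT and 0.124% in MEG3. The most frequent word occurred 4 times in KCNQ1OT1 and 3 times in NORAD, so 3 copies are not particular to FIRRE. Only words that held all of A, C, G and T were counted, and only the 9 members were searched. The copies lie on the minus strand at chrX:130917950-130917979, chrX:130889661-130889690 and chrX:130883369-130883398.
FIRRE copy 1: gtagaaaTGGGAAGACTTGGTTGagcggaa
FIRRE copy 2: gtagaaaTGGGAAGACTTGGTTGtgcagta
FIRRE copy 3: gtagaaaTGGGAAGACTTGGTTGtgcagaa

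The labels held for the targeted gene. HNRNPU stood at 91.2 FPKM (fragments scaled by transcript length and by the library's mapped reads) in control 24 h, 10.4 in SAF-A 24 h, 84.6 in control 48 h and 9.24 in SAF-A 48 h, or 11.4% and 10.9% of the control levels with SAF-A siRNA. The other libraries implied between 28083822 and 30701282 mapped reads, but SAF-A 48 h only 1216740, and every value at 48 h with SAF-A siRNA rests on that shallow library. RPE1 cells showed few genes of mature pigment epithelium: of 10 markers only MITF and OTX2 had a mean of at least 1 FPKM, and RPE65 and TTR were at 0 in all 4 libraries. Of the 4 simple epithelium markers CDH1 was at 0 throughout and EPCAM at most at 0.0235 FPKM, so their sum is that of KRT8 and KRT18. This sum was 161 to 293 FPKM in the deeper libraries and 38.8 FPKM in SAF-A 48 h. The 4 mesenchymal markers (VIM, CDH2, FN1 and COL1A1) summed to 1960 to 2630 FPKM and 3690 FPKM. Most of the last sum was VIM, at 3310 FPKM against 1590 in control 48 h. CDH2 and COL1A1 were also higher than in control 48 h, but FN1 was lower, at 294 against 319 FPKM. The 2 blood and 2 neuron markers summed to under 0.5 FPKM in each group of markers and library. The part of these shifts in the results at 48 h was not tested, and in bulk RNA fewer cells of a type and less RNA per cell cannot be told apart.

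FPKM is scaled by length, so the members can be ranked against each other. In control 24 h the order was NORAD at 61.3 FPKM, then MALAT1, NEAT1, TUG1, PVT1, FIRRE, MEG3 and MIAT, with KCNQ1OT1 last at 0.128 FPKM. The only neighbours in that order whose deposited 95% intervals overlapped were MEG3 and MIAT, and the order was identical in SAF-A 24 h. In control 48 h MALAT1 and NORAD exchanged places, MALAT1 at 59.2 FPKM and NORAD at 43.5 FPKM. In SAF-A 48 h NORAD was first again and MALAT1 second, while from NEAT1 down every neighbour's interval overlapped the next, so the lower part of that order is not resolved. A floor of 1 FPKM on the mean of the 4 libraries was passed by 6 members (MALAT1, NEAT1, FIRRE, PVT1, TUG1 and NORAD), which entered counts beside the 11046 tested genes of at least 300 bases; KCNQ1OT1, MEG3 and MIAT had means of 0.102, 0.841 and 0.842 FPKM and are described only.

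**Figure D1:**
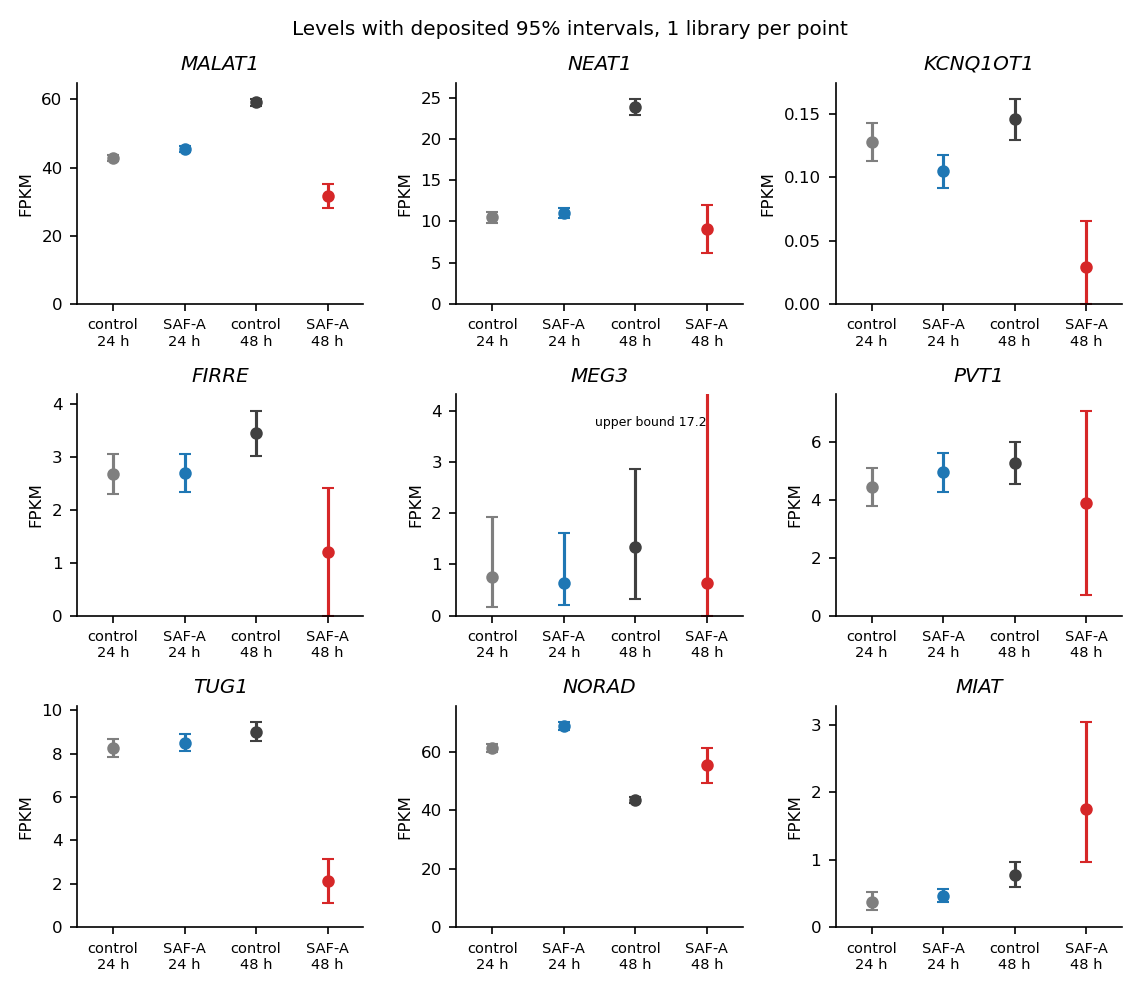
FPKM of each of the 9 members (vertical axis, from 0, a separate scale per panel) in the 4 libraries, with the deposited 95% intervals as bars. MALAT1, NEAT1, KCNQ1OT1, FIRRE, PVT1 and TUG1 have their lowest point in SAF-A 48 h and their highest in control 48 h, with overlapping intervals for PVT1, NORAD is lowest in control 48 h, and the intervals of SAF-A 48 h are the widest in every panel.

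MALAT1 (NR_002819, chr11:65265233-65273939, plus strand, a single exon of 8707 bases) keeps company with splicing factors in speckles and was the most deeply read member. Its level was 42.7 FPKM in control 24 h, 45.4 in SAF-A 24 h, 59.2 in control 48 h and 31.7 in SAF-A 48 h. None of the 4 deposited intervals overlapped another: 41.9 to 43.6, 44.6 to 46.3, 58.2 to 60.2 and 28.2 to 35.2 FPKM. At 48 h the SAF-A library held 53.6% of the control level, a ratio of 0.536 with an exact 95% counting interval of 0.479 to 0.598. An estimated 328 reads were seen there, where the control level would have given 612.5. MALAT1 thus missed the 2-fold mark at 48 h (log2 change of FPKM + 1 of -0.88), and at 24 h the ratio was 1.06.

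NEAT1 is described from the row of its short form, the one NEAT1 row used here. The long form that builds paraspeckles covers the same bases, so reads of the short and long forms cannot be told apart there. This row (NR_028272, chr11:65190269-65194003, plus strand, 1 exon of 3735 bases) stood at 10.5 FPKM in control 24 h, 11.0 in SAF-A 24 h, 23.9 in control 48 h and 9.08 in SAF-A 48 h. Control 48 h was alone in being high, and the other 3 intervals (9.81 to 11.1, 10.3 to 11.6 and 6.17 to 12.0 FPKM) overlapped. The contrast at 48 h, with SAF-A at 38.0% of the control (39 estimated reads against 102.6 at the control level, ratio 0.270 to 0.521), therefore stands beside a NEAT1 level in control cells that was 2.28-fold higher at 48 h than at 24 h (2.12 to 2.45). With SAF-A siRNA the level at 48 h was 0.826 times that at 24 h (0.584 to 1.14), an interval that includes 1.

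One deposited row gives a narrow look at the long NEAT1 form. MIR612, a microRNA hairpin of 100 bases at chr11:65211929-65212028, starts 17926 bases past the end of the short form and inside the long one, and the deposited interval of its row implies 9 reads in control 24 h, 7 in SAF-A 24 h, 23 in control 48 h and 0 in SAF-A 48 h. Reads in this window of the long form were 2.51 times as frequent in control 48 h as in control 24 h (exact 95% interval 1.12 to 6.16). The ratio was 2.28 for the row of the short form, which the long form also covers. The 0 in SAF-A 48 h is not readable, because the control level would have given only 0.979 reads and a count of 0 allows up to 3. Reads of the long NEAT1 and of the hairpin cannot be told apart, and the FPKM of so short a row is not comparable with that of long genes.

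Among the RNAs that work on chromatin, KCNQ1OT1 is the imprinted transcript that keeps neighbouring genes silent on the paternal chromosome. Its model (NR_002728, chr11:2629558-2721228, minus strand) is 1 exon of 91671 bases, so its FPKM is low although many reads fell on it. Levels were 0.128 FPKM (328 estimated reads) in control 24 h, 0.105 (294) in SAF-A 24 h, 0.146 (381) in control 48 h and 0.0288 (3) in SAF-A 48 h. The last library stood apart from the others: 16.2 reads would have come at the control level, and the ratio was 0.198 (0.0380 to 0.545). The locus lies inside KCNQ1 on the other strand, and KCNQ1 mRNA itself was at or near 0, no higher than 0.0125 FPKM in any library. Strand was not recorded in the sources used here, so reads from KCNQ1 introns and from KCNQ1OT1 cannot be told apart.

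FIRRE (chrX:130836678-130964671, minus strand, 13 exons) helps to bring distant chromosomal sites together and depends on SAF-A for its focal position in the nucleus, by background knowledge. It stood at 2.67 FPKM in control 24 h, 2.69 in SAF-A 24 h, 3.45 in control 48 h and 1.21 in SAF-A 48 h. The first 3 libraries had 205, 225 and 269 estimated reads and the last had 4, where the control level would have given 11.4. At 48 h the ratio was 0.350 with an interval of 0.0945 to 0.905, and at 24 h it was 1.01 (0.827 to 1.22). FIRRE is thus just past the 2-fold mark at 48 h (log2 change -1.01) on 4 reads.

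TUG1 is a conserved RNA that has been reported to bind Polycomb proteins. Its row (NR_002323, chr22:31365634-31375380, plus strand, 3 exons and 7104 bases) was matched to the symbol by a shared intron, because that accession did not match the RefSeq table. The level was 8.27 FPKM in control 24 h, 8.50 in SAF-A 24 h, 9.01 in control 48 h and 2.14 in SAF-A 48 h. The other libraries lay close together, and SAF-A 48 h lay far below with an interval (1.13 to 3.16 FPKM) that met none of theirs. At 48 h TUG1 was at 23.8% of the control (18 estimated reads against 75.7, ratio 0.141 to 0.377), the largest difference among the 6 members that passed the filter.

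PVT1 is often gained together with its neighbour MYC in cancers. The deposited model (NR_003367, chr8:128902874-129113499, plus strand, 8 exons) gave 4.44 FPKM in control 24 h, 4.95 in SAF-A 24 h, 5.27 in control 48 h and 3.89 in SAF-A 48 h. All 4 intervals overlapped, and at 48 h the ratio was 0.738 on 7 estimated reads (0.289 to 1.52). MYC, the next gene before it, was at 30.0, 24.4, 40.8 and 7.98 FPKM in the same order of libraries, a log2 change of -2.22 at 48 h.

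MEG3 and MIAT were low in RPE1 cells, and MEG3 was barely read in SAF-A 48 h. MEG3, an imprinted maternal transcript linked to growth control, stood at 0.752 FPKM in control 24 h (41 estimated reads), 0.637 in SAF-A 24 h (44), 1.33 in control 48 h (60) and 0.645 in SAF-A 48 h (1). All its intervals overlapped, and a change at 48 h was not detectable at this depth (ratio of reads 0.00975 to 2.27). MIAT, an RNA of the nucleus first tied to heart disease and later to neurons and the retina, was at 0.379, 0.463, 0.773 and 1.75 FPKM in the same order. It is the only member that was highest in SAF-A 48 h, with 21 estimated reads where the control level would have given 9.28. Counting alone gave a ratio of 2.27 (1.37 to 3.55) between the 48 h libraries, but the summed deposited intervals (0.598 to 0.961 and 0.959 to 3.04 FPKM) just touched. MIAT was also 2.04 times as high in control 48 h as in control 24 h (1.61 to 2.60).

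The isoform split of these sparse RNAs moved between libraries. For MIAT the row NR_033320 took 73.7% of the FPKM in control 24 h and 71.4% in control 48 h, NR_033321 took 99.9% in SAF-A 24 h, and NR_033319 took 99.7% in SAF-A 48 h. The 4 MIAT rows are 9982 to 10182 bases long, with 4 or 5 exons, and the reads were single and 50 bases long. For MEG3, with 15 rows, between 1 and 5 rows held more than 5% of the level in a library, and no row led in all. A change in splicing and a different assignment of few reads cannot be told apart.

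**Figure D2:**
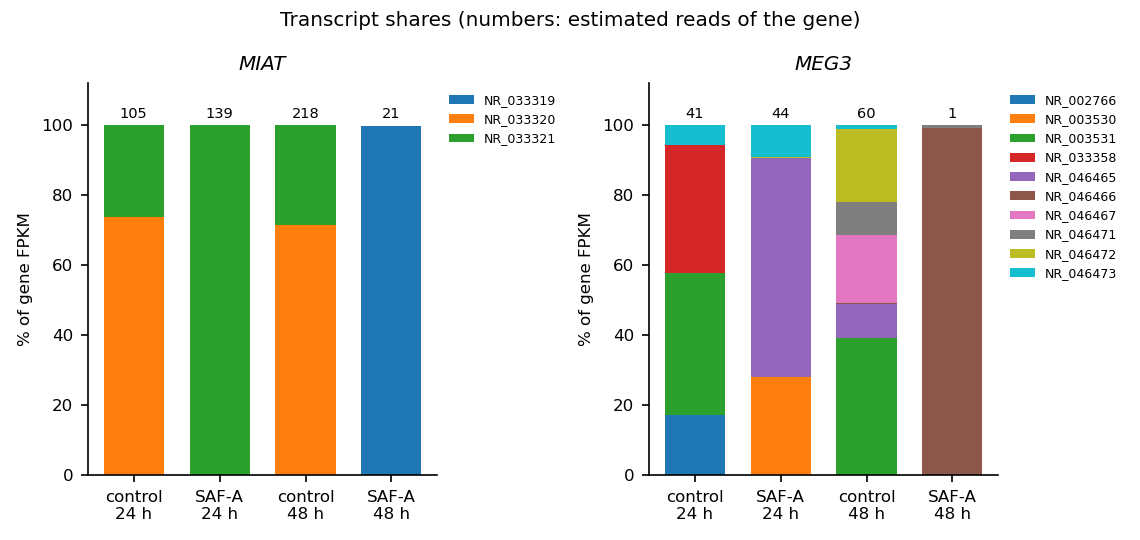
Share of each gene's summed FPKM (vertical axis, percent) given to its transcript rows in the 4 libraries, for MIAT and MEG3, with the gene's estimated reads above each bar and rows of at most 3% left out. Both control libraries give MIAT the same leading row, and each SAF-A library gives another one.

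NORAD (chr20:34633540-34638882, minus strand, 1 exon of 5343 bases) works mostly in the cytoplasm, where the Pumilio elements printed above hold Pumilio proteins. It stood at 61.3 FPKM in control 24 h, 68.8 in SAF-A 24 h, 43.5 in control 48 h and 55.3 in SAF-A 48 h. NORAD was the one well-read member that was higher with SAF-A siRNA at both times, by ratios of 1.12 (1.09 to 1.15) and 1.27 (1.14 to 1.42), though rescaling each library to one common sum, TPM, turned the first into -0.02 on the log2 scale. In control cells NORAD at 48 h was at 70.9% of its level at 24 h, where MALAT1 and NEAT1 were higher at 48 h.

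Between the siRNAs at 24 h none of the 6 members that passed the filter was 2-fold different, against 0.371% of all tested genes that were higher by this measure and 0.226% that were lower. All 6 log2 changes lay between 0.01 and 0.16, with a median of 0.07 beside -0.07 over all tested genes, and rescaling to TPM turned all 6 to below 0, with the members' median at -0.10 and that of all genes at -0.23. HNRNPU in the same pair of libraries was at 11.4% of its control level. At this time the intervals of MALAT1 and NORAD lay apart between the siRNAs, which was also so for 27.0% of all tested genes.

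At 48 h FIRRE, NEAT1 and TUG1 were at least 2-fold lower with SAF-A siRNA, 3 of the 6, and none was 2-fold higher. Over all tested genes 18.4% were lower and 14.3% higher by the same measure, and among 676 noncoding genes 31.8% were lower. The median log2 change of these 6 was -0.94 beside -0.11 over all tested genes and -0.51 over the noncoding ones, and over all 9 members, with no filter on low values, it was -0.50. Of the 6, 5 were below 0 and NORAD was above, and the intervals lay apart for all but PVT1, as for 49.5% of all tested genes.

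Across time in control cells, NEAT1 alone was 2-fold higher at 48 h (log2 change 1.12), beside 0.543% of all tested genes, and none was 2-fold lower (0.407% of all). MALAT1 followed at 0.46, FIRRE at 0.28, PVT1 at 0.20 and TUG1 at 0.11, and NORAD was at -0.49. The intervals between times were apart for MALAT1, NEAT1 and NORAD, as for 32.3% of all tested genes. Across time with SAF-A siRNA, TUG1 alone was 2-fold lower (-1.60), beside 16.0% of all tested genes, and none was 2-fold higher (15.5% of all). All 6 changes were below 0, with a median of -0.41 beside -0.01 over all genes (-0.19 beside 0.18 after rescaling to TPM), and the intervals of MALAT1, TUG1 and NORAD lay apart, as for 48.4% of tested genes. These 4 comparisons share libraries, so they are not independent of one another.

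**Figure D3:**
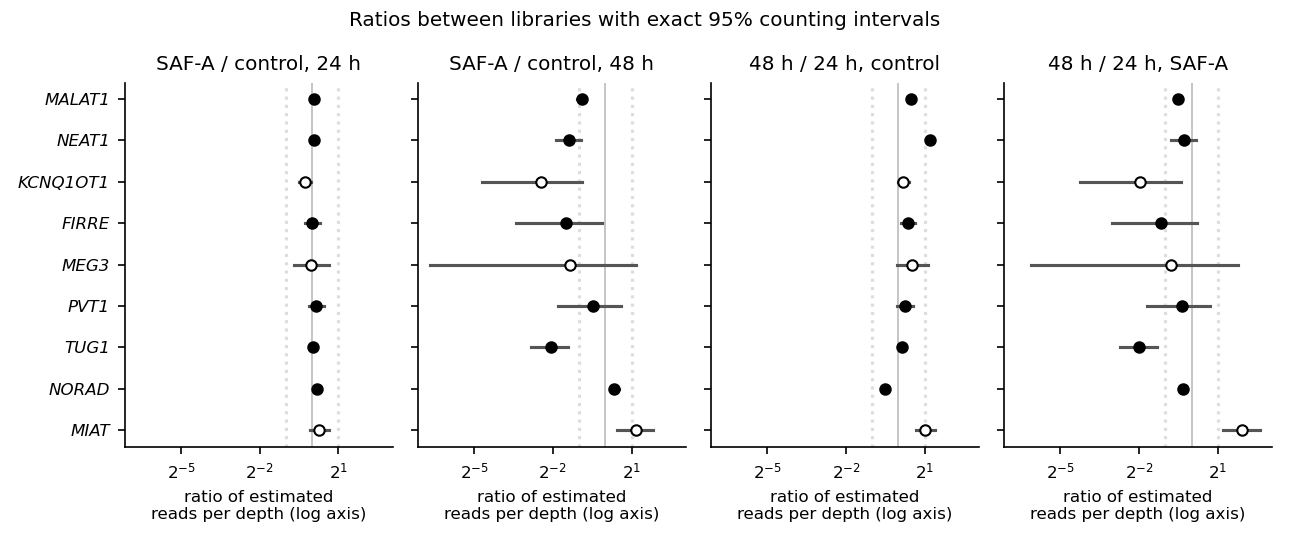
Ratio of estimated reads per mapped read between 2 libraries (horizontal axis, log scale) for each member in the 4 comparisons, with exact 95% counting intervals, filled points for the 6 members that passed the filter, and dotted lines at 2-fold. The points lie near 1 at 24 h, while at 48 h TUG1, KCNQ1OT1, NEAT1, FIRRE and MEG3 (1 read) lie to the left of 2-fold lower and MIAT lies to the right of 2-fold higher.

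Several members are single-exon models, and that property went with the change at 48 h over the whole table. Of 408 tested genes of 1 exon, 50.2% were at least 2-fold lower with SAF-A siRNA at 48 h and 2.45% higher, with a median log2 change of -1.01. Of 10606 genes with several exons, 17.2% were lower and 14.8% higher, with a median of -0.07. Replication-dependent histone genes were 53 of the first class and had a median of -2.11, and the other 355 still had a median of -0.93. At 24 h the medians were -0.03 for all 408 single-exon genes and -0.07 for the 10606 with several exons. This division was chosen after values had been seen, and its part in the members' values was not tested.

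Within the single-exon class MALAT1 (-0.88) and NEAT1 (-1.30) took ordinary places at 48 h, with 58.3% and 36.5% of the class below them. NORAD did not: 386 of the 408 genes, or 94.6%, had a lower change. These places count the 53 histone genes. The 163 noncoding genes of the single-exon class had a median of -0.89, with 42.3% at least 2-fold lower. TUG1, with several exons, lay near the bottom of its own class, with 5.70% of 10606 genes below it, FIRRE had 16.9% below it and PVT1 38.7%. Most of that class is coding. Its 504 noncoding genes were lower, with a median of -0.36 and 28.6% at least 2-fold lower, beside -1.67 for TUG1, -1.01 for FIRRE and -0.36 for PVT1. In control cells over time, NEAT1 lay above 99.5% of the single-exon genes, MALAT1 above 93.6% and NORAD above 3.68%.

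**Figure D4:**
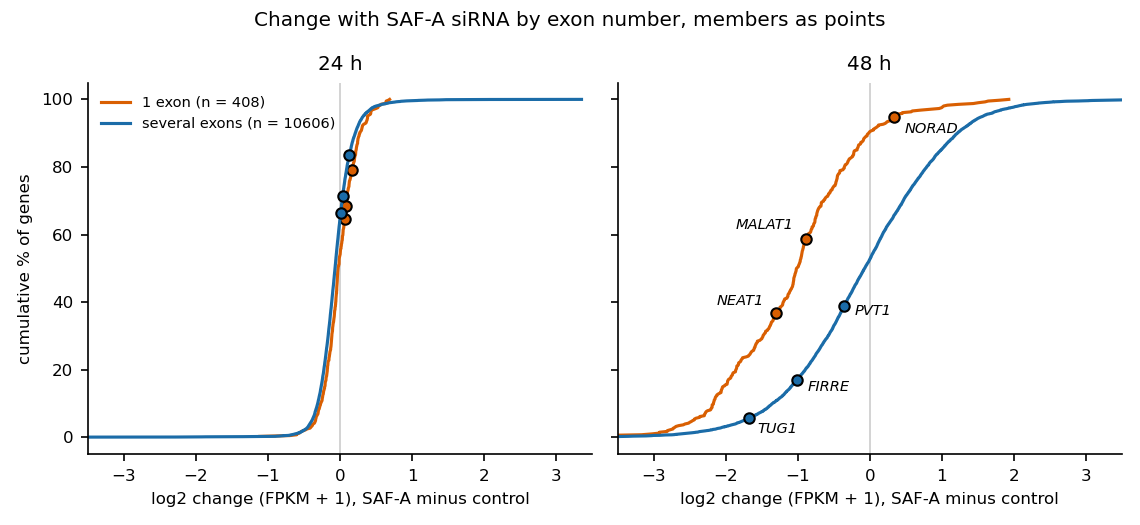
Cumulative percent of tested genes (vertical axis) by log2 change of FPKM + 1 with SAF-A siRNA (horizontal axis) at 24 h and 48 h, for 408 genes of 1 exon and 10606 with several, with the 6 members that passed the filter as points on their own curve. At 48 h the single-exon curve is shifted to the left, with its median at -1.01, and NORAD sits near its top.

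In length and composition the members were a mixed group. KCNQ1OT1, MIAT, MEG3, MALAT1 and TUG1 were longer than at least 92.0% of the tested transcripts, by their longest row, and PVT1, at 1699 bases, was longer than 20.2%. GC content ran from 40.4% in MALAT1, and 41.5% in NORAD and TUG1, to 52.2% in PVT1, beside a median of 48.2% over tested transcripts. The polyadenylation hexamer AATAAA, searched in the last 50 bases on the transcript strand, was found in the MALAT1, NEAT1, NORAD and TUG1 models and in 64.3% of tested transcripts. At 48 h tested transcripts of 8000 bases or more had a median log2 change of -0.19 and the 2754 of lowest GC content had one of -0.17, beside -1.01 for the single-exon genes. Each property was looked at singly, and their parts in the change were not tested.

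The proteins these RNAs work with were looked at in lists chosen by function, none of whose genes was 2-fold changed between the siRNAs at 24 h. Of 18 paraspeckle proteins, 5 were at least 2-fold lower at 48 h and none higher, with a median log2 change of -0.56, beside 18.4% lower, 14.3% higher and a median of -0.11 over all tested genes. The hnRNP protein gene HNRNPA1 was at 18.7 FPKM in SAF-A 48 h against 90.7 in the control, RBMX at 19.8 against 90.3, and TARDBP, which encodes TDP-43, at 1.23 against 7.47 on 6 estimated reads. Of the core paraspeckle pair, SFPQ was among the 5 (68.5 against 173 FPKM, log2 change -1.33) and NONO was not (72.6 against 107, -0.56). PSPC1, also on the list, was higher (68.7 against 44.8 FPKM, log2 change 0.61), and 5 of the 18 were above 0. Of 17 proteins of the nuclear speckles, where MALAT1 resides, 4 were lower, a share near the 18.4% of all tested genes, and none was higher, with a median of -0.41. The 4 included the splicing factors SRSF6 (14.2 against 41.6 FPKM), RNPS1 (6.26 against 20.2) and SRRM1 (0.661 against 4.10, on 3 reads).

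For the maturation of the MALAT1 end and RNA methylation, 12 of 13 listed genes were tested. At 48 h 2 were at least 2-fold lower and 1 was higher, beside 18.4% and 14.3% of all tested genes. Of the 12, 6 were above 0 and 6 below, with a median log2 change of -0.10 beside -0.11 over all tested genes. POP5, a subunit of RNase P, was at 5.52 FPKM in SAF-A 48 h against 33.2 in the control, on 3 estimated reads, and METTL3, the m6A methyltransferase, at 17.0 against 38.1. RPP30, another RNase P subunit, was higher, at 52.9 against 24.2. Among the 4 NORAD partners PUM2 was higher (11.3 against 4.08 FPKM), and RBMX, which the paraspeckle list also holds, was lower. The median of the 4 was -0.09. Of 6 Polycomb and G9a genes 1 was 2-fold lower, again near the 18.4% of all tested genes: EZH2, the methyltransferase of a Polycomb complex (6.20 against 19.8 FPKM). In the list of 11 nuclear architecture proteins LMNB1 (22.9 against 83.8) and TOP2A (50.7 against 106) were lower and LMNA (744 against 296) was higher. No other gene of that list passed 2-fold at 48 h, and its median was -0.23.

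Genes of cell division were mostly lower at 48 h. Of 15 mitotic genes 11 were at least 2-fold lower with SAF-A siRNA at 48 h and all 15 were below 0, with a median of -1.20, beside 18.4% of all tested genes lower and a median of -0.11. MKI67, a marker of proliferating cells, was at 2.07 FPKM against 11.5 in the control, AURKA at 15.8 against 58.9 and CDC20 at 20.7 against 58.8. At 24 h the median was -0.14 and none passed 2-fold. The part of these genes in the values of TUG1, NEAT1 and FIRRE was not tested.

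**Figure D5:**
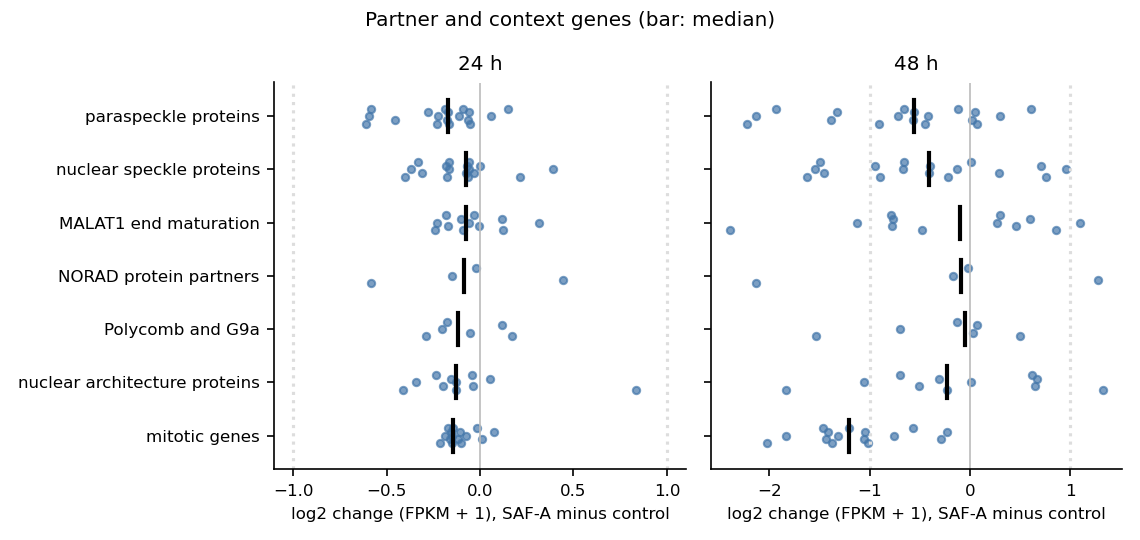
Log2 change of FPKM + 1 with SAF-A siRNA (horizontal axis) at 24 h and 48 h for tested genes of 7 lists, 1 point per gene, black bars at the medians and dotted lines at 2-fold. No point passes 2-fold at 24 h, and at 48 h the mitotic genes lie below 0, with a median of -1.20.

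The genes beside the members did not follow them at 48 h in a common way. NEAT1 and MALAT1 are themselves neighbours, 71230 bases apart. FRMD8, the nearest tested gene before NEAT1 at 9274 bases, was at 5.79 FPKM in SAF-A 48 h against 5.61 in control 48 h. MORC2, which starts 1447 bases from TUG1 on the other strand, was at 3.86 against 5.91 FPKM with overlapping intervals, and SMTN on the other side was at 65.5 against 72.3. SCAND1, before NORAD, was lower at 18.8 against 48.0 FPKM, and TPST2, before MIAT, was higher at 64.7 against 15.4. Of the genes known to be controlled in cis, PHLDA2 near KCNQ1OT1 was at 11.5 against 8.84 FPKM with overlapping intervals, while CDKN1C, DLK1 and RTL1 near KCNQ1OT1 or MEG3 were under 0.2 FPKM at 48 h.

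Genes whose profile over the 4 libraries was most like that of a member were sought among 7698 genes whose mean reached 5 FPKM, by the distance between log2 values centred on their own mean. The closest to MALAT1 was SCO2 (distance 0.06), a mitochondrial copper chaperone, at 8.55, 8.63, 11.6 and 6.10 FPKM. The closest to NEAT1 were RSRP1 (0.18), at 11.5, 11.9, 26.9 and 11.7 FPKM, and CDKN1B (0.21), which encodes the cell cycle inhibitor p27. SYNJ2BP (0.05) and FEM1B (0.07) were closest to TUG1, and ZNF800 (0.06) and CCDC80 (0.08) to NORAD. With 4 libraries such likeness describes these libraries only.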

How the data were processed

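RPE1 RNA was sequenced as 50-base single reads in 4 libraries, per the labels' protocols. The authors deposited a table of FPKM values with 95% bounds and a transcript file for each library, per the file headers; the submitters' processing notes name TopHat2 2.0.10, Bowtie2 2.1.0, Cufflinks 2.2.1 and hg19 with no order. Strand use and the handling of multiply mapped reads are not given in the sources used here, and the labelled kit does not mark strand. Each row is a RefSeq transcript. Rows were named through a RefSeq table by accession (97.1%) or, where a symbol was otherwise absent, by a shared intron (448 rows, TUG1 among them), and FPKM and bounds were summed per symbol, which widens the bounds.

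Coverage over FPKM in the transcript files gave the mapped reads, and FPKM times effective length (fragments of 200 ± 80 bases) gave estimated reads. Ratio intervals are exact 95% Clopper-Pearson intervals on the split of those reads between 2 libraries. Changes are differences of log2(FPKM + 1), which understates the change of low genes, over genes of at least 300 bases whose 4-library mean reached 1 FPKM; RNAs under 300 bases held 50.9% to 63.8% of the summed FPKM. A 2-fold change counts. No test was made, since each group had 1 library; a model with additive effects of siRNA and time, which would leave 1 residual degree of freedom, was not fitted.

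All 9 members are named, with HNRNPU, and from each list at most the 3 largest changes per comparison that passed 2-fold with intervals apart. NONO, SFPQ, PSPC1, the cis genes and the neighbours were named beside these after their values were seen. The members and lists were chosen with earlier results of these data known. Alternatives were a pseudocount of 0.1, other filters, rescaling to TPM, centring, the longest row only, intervals apart and 1.5-fold. Scripts were tested on simulated data and used Python 3.11.15, pandas 2.3.3, NumPy 2.4.6 and SciPy 1.17.1. Sequences came from GRCh37.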

Additional observations from a re-analysis of the deposited data

Results flagged for a closer look

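MALAT1 moved one way in one comparison and the other way in its counterpart, with deposited intervals apart in each. Between SAF-A and control siRNA its log2 change was 0.0856 at 24 h and -0.8798 at 48 h, although the first turned to -0.09 after rescaling to TPM. Between 48 h and 24 h it was 0.4603 with control siRNA and -0.5051 with SAF-A siRNA. Both rest on the SAF-A 48 h library, with 328 estimated reads of MALAT1, and the difference between the paired changes was not tested, since each is 1 library against 1.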

How the results depend on the processing

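No paired analysis was possible because the groups share only replicate number 1 and no result comes from a test; a fit pairing the siRNAs by time was not made, and no replicate could be left out. Of the alternatives to the counts and medians of the members, 105 stayed within 1.5 times (counts) or within the median of the members' counting bounds (medians), and 3 did not. The number of members 2-fold lower between 48 h and 24 h with SAF-A siRNA was 1 (TUG1) and became 2 (FIRRE and TUG1) with a pseudocount of 0.1 and with a 1.5-fold threshold. The median at 24 h reversed from 0.0747 to -0.0998 after rescaling to TPM, and was 0.14 after centring. Within the bounds but moved over 1.5 times were the median at 48 h, -0.50 over all 9 members, and that across time with SAF-A siRNA, -0.19 after rescaling to TPM. Of the alternatives to single members and transcript shares, 27 moved beyond counting error and 197 did not; KCNQ1OT1 at 48 h went from -0.16 to -0.93 with a pseudocount of 0.1. That rescaling moved the median of all genes at 24 h to -0.23 and gave 21.1% of genes higher and 12.0% lower across time with SAF-A siRNA, in place of 15.5% and 16.0%. Depth limits SAF-A 48 h most: FIRRE, PVT1, KCNQ1OT1 and MEG3 had 4, 7, 3 and 1 estimated reads there. A filter over the other 3 libraries only was added after seeing the data.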
